A study of Mus musculus with 21 samples.

Results

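The p53 gene Trp53 and 9 of its classical target genes (Mdm2, Ccng1, Plk2, Bax, Bbc3, Phlda3, Zmat3, Trp53inp1 and Sesn1) were followed through 21 RNA-seq libraries of mouse acute myeloid leukaemia cells. The members were chosen by symbol. They are 10 of the 16782 symbols in the 3 expression tables. All 10 have a row in the overexpression table, and 9 have one in each of the other tables, where Phlda3 has no row.

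Every library came from an established murine leukaemia line grown with stem cell factor. The first line was transformed by flag-tagged NUP98-NSD1, a fusion of a nucleoporin with a histone H3 lysine 36 methyltransferase. It was given DMSO, UNC1999 or JQEZ5 (3 libraries each). UNC1999 and JQEZ5 inhibit PRC2, the complex that methylates histone H3 at lysine 27, and were used at 3 µM for 4 days. In the knockdown experiment the NUP98-NSD1 line carried the pLKO.1-puro lentivirus, either empty (shEV) or with an shRNA to Kdm5b (shKdm5b), and was selected with puromycin (3 libraries each). Kdm5b removes methyl groups from lysine 4 of histone H3. The second line was transformed by MLL-AF9 and carried the MSCV-neo retrovirus, either empty (EV) or with wild-type Kdm5b (Kdm5b_WT) or the demethylase-dead mutant H499A (Kdm5b_H499A), with 2 libraries each. There is thus 1 line per fusion and 1 named shRNA construct, and knockdown and overexpression were done in different lines. The labels do not say whether replicates were separate cultures, so p-values measure only the spread between these libraries, which may be technical.

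p53 is a transcription factor that is held at a low level in unstressed cells because Mdm2, an E3 ubiquitin ligase, marks it for degradation. Mdm2 is itself a p53 target, so the 2 genes form a feedback loop. Stress and oncogene signals stabilise the p53 protein, and its targets then hold the cell cycle, start apoptosis or adjust metabolism. In myeloid leukaemia this pathway is known as a barrier to transformation. The level of the Trp53 transcript is not a measure of p53 protein or activity, and neither was measured here.

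p53 binds DNA as a tetramer on a pair of copies of a palindromic half-site. The promoter windows that RefSeq gives for these genes (build GRCm38.p6, from 250 bases before to 50 after each start) were searched for the p53 half-site consensus, which is its own reverse complement, so that 1 pass covers both strands. A full site was counted as 2 half-sites at most 13 bases apart, with the core of each half-site intact. Of the members, 8 have a window, 11 windows in all, and Zmat3 and Trp53inp1 have none. A half-site without a mismatch lies in the windows of 5 members (Trp53, Mdm2, Ccng1, Bax and Sesn1), against 8.36% of all 32851 windows. A full site with at most 3 mismatches lies in those of 4 members (Trp53, Bax, Bbc3 and Sesn1), against 6.72% of all windows, and with at most 2 mismatches in those of Bax and Sesn1, against 2.12%. No member has one with at most 1 mismatch, which 0.417% of windows hold. The shares are per window and the counts per member, and Bbc3 and Sesn1 have more than 1 window. These are matches of letters in a fixed window. Binding was not measured, and known sites inside introns can lie outside these windows.

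The best full sites are shown because p53 is known to act on its targets through such pairs of half-sites. Capitals mark the half-sites, lower case the spacer and 20 flanking bases, and each runs 5′ to 3′ on the strand of the gene. Positions count from the start to which the window belongs. For Sesn1 this is window 2 of 2 (chr10:41887189-41887488), which lies well inside the gene, and window 1 holds no full site. For Bbc3 it is window 1 of 3.
Trp53 (chr11:69580264-69580323, + strand, 3 mismatches, first site base at -75): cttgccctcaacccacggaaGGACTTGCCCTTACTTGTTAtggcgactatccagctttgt
Bax (chr7:45467059-45467119, - strand, 2 mismatches, first site base at -201): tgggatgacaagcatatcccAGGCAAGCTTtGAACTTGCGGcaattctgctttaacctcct
Bbc3 (chr7:16309466-16309525, + strand, 3 mismatches, first site base at -97): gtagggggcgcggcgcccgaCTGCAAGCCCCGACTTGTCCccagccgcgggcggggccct
Sesn1 (chr10:41887233-41887295, + strand, 2 mismatches, first site base at -186): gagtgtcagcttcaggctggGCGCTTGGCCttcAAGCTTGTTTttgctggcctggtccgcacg
The half-sites of the other 2 members with a perfect one, in capitals with 10 flanking bases, read as follows.
Mdm2 (chr10:117710925-117710954, - strand, first base at -186): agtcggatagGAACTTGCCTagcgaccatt
Ccng1 (chr11:40755452-40755481, - strand, first base at -185): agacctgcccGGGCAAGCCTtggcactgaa

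In GENCODE M21 (GRCm38) all 10 are protein-coding genes. Trp53 lies at chr11:69580359-69591873 on the + strand and Mdm2 at chr10:117688875-117710758 on the - strand. The arrest genes are Ccng1 (chr11:40748552-40755311) and Plk2 (chr13:110395046-110400844). The death and growth genes are Bax (chr7:45461697-45466898), Bbc3 (chr7:16308393-16318205), Phlda3 (chr1:135766119-135769136), Zmat3 (chr3:32334792-32366014) and Trp53inp1 (chr4:11156431-11174379), and Sesn1 lies at chr10:41809935-41908424. Exons of Bax share 915 bases with Gm45808 and those of Sesn1 share 2584 bases with 9930024M15Rik, on the same strand, so their counts could hold reads of these neighbours.

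Recovered reads per library summed to between 12812646 and 18928764 in the inhibitor table, 21273211 and 34813867 in the knockdown table, and 17341257 and 19973218 in the overexpression table. Libraries of 1 group correlated at a Pearson r of 0.9943 to 0.9989 across genes, lowest for UNC1999 replicate 3. The targeted gene moved with the labels. Kdm5b fell from 74.5 ± 17.8 normalised counts in shEV to 28.7 ± 5.44 in shKdm5b (SD, n = 3; limma adjusted p = 0.00401, from the fit of all genes because it was under the expression filter). Its level was already low in the control, with 71 to 112 reads in the shEV libraries. Kdm5b rose from 121 ± 9.89 in EV to 1413 ± 4.48 in Kdm5b_WT and to 294 ± 21.5 in Kdm5b_H499A (SD, n = 2). The mutant transcript thus stood at a much lower level than the wild-type one, so that the mutation and the amount of transgene RNA cannot be told apart. All 8 myeloid markers (such as Ptprc, Spi1 and Mpo) have rows in every table, while of the T and NK cell markers none of 4 has a row, and the single erythroid and B cell markers with a row (Klf1 and Ms4a1) reached at most 25.5 and 31.9 normalised counts. Of 5 stromal and endothelial markers, Pecam1 has a row in every table and Pdgfrb in those of the inhibitor and overexpression experiments, with sums of 839 to 5764.

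Levels between genes were compared as RPKM (recovered reads scaled by exon length and library depth), with the mean of a group. In DMSO Bax stood highest at 69.0 ± 3.02, followed by Ccng1 at 41.1 ± 1.68, Trp53 at 18.7 ± 0.305 and Mdm2 at 17.0 ± 0.733 (SD, n = 3). Sesn1, Trp53inp1, Bbc3, Plk2 and Zmat3 followed from 9.23 down to 1.56. In EV the order changed at the top, with Trp53 at 66.8 ± 0.540, Bax at 55.4 ± 0.564 and Ccng1 at 45.1 ± 0.390 (SD, n = 2). In DMSO, shEV and EV no neighbours in the order overlapped between libraries. Plk2, a polo-like kinase of the stress response, was lowest in the MLL-AF9 control at 0.111, against 1.77 in DMSO and 1.29 in shEV.

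**Figure D1:**
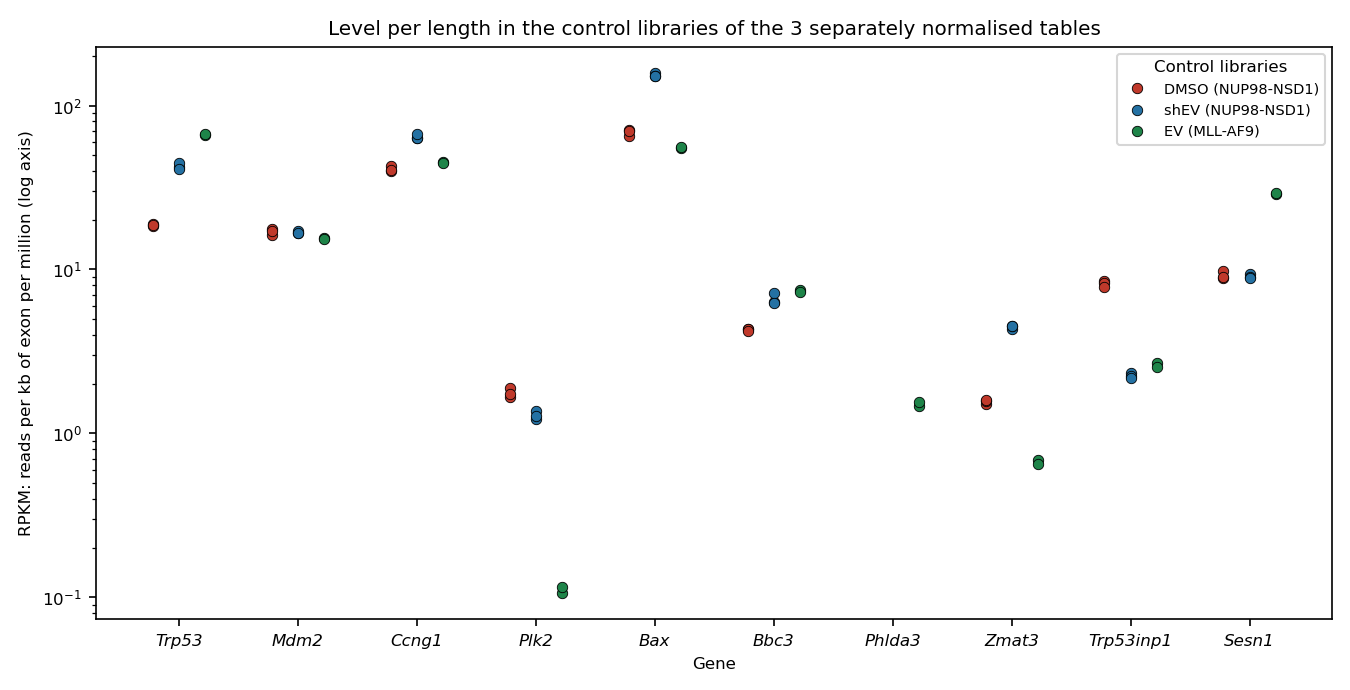
Level of each gene in the control libraries, as RPKM (reads scaled by exon length and depth) on a log axis, with 1 point per library and colours for DMSO, shEV and EV. Mdm2 lies between 15.5 and 17.0 in the means of all 3 controls, while Plk2 spans 0.111 to 1.77 and Phlda3 has a row only in the overexpression table.

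The 3 tables were normalised separately and differ in line or vector, and possibly in library kit. The inhibitor and knockdown tables share the NUP98-NSD1 line. Levels are therefore set side by side across the tables without a test. The mean RPKM of Trp53 was 66.8 in EV, 62.5 in Kdm5b_WT, 57.2 in Kdm5b_H499A, 42.4 in shEV, 41.9 in shKdm5b, 18.7 in DMSO, 18.5 in JQEZ5 and 14.3 in UNC1999. In that order the libraries of neighbouring groups overlapped for shEV with shKdm5b and for DMSO with JQEZ5. Even the 2 controls of the NUP98-NSD1 line differed, with 2.27 times as much Trp53 in shEV as in DMSO, and 2.23 times as much Bax. Kdm5b, the knockdown target, went the other way, at 0.152 in shEV against 2.42 in DMSO. Mdm2 kept within 15.5 to 20.9 over all 8 groups, highest in UNC1999 and lowest in EV. Plk2 ranged from 9.21 in UNC1999 to 0.111 in EV, Bax from 154 in shEV to 55.4 in EV, and Sesn1 from 29.0 in EV to 7.80 in shKdm5b. Zmat3 ranged from 4.47 in shEV to 0.667 in EV and Trp53inp1 from 8.21 in DMSO to 2.25 in shEV. The ranges of Ccng1 (90.7 in Kdm5b_WT to 41.1 in DMSO) and Bbc3 (14.7 in Kdm5b_WT to 4.29 in DMSO) both peaked in Kdm5b_WT.

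**Figure D2:**
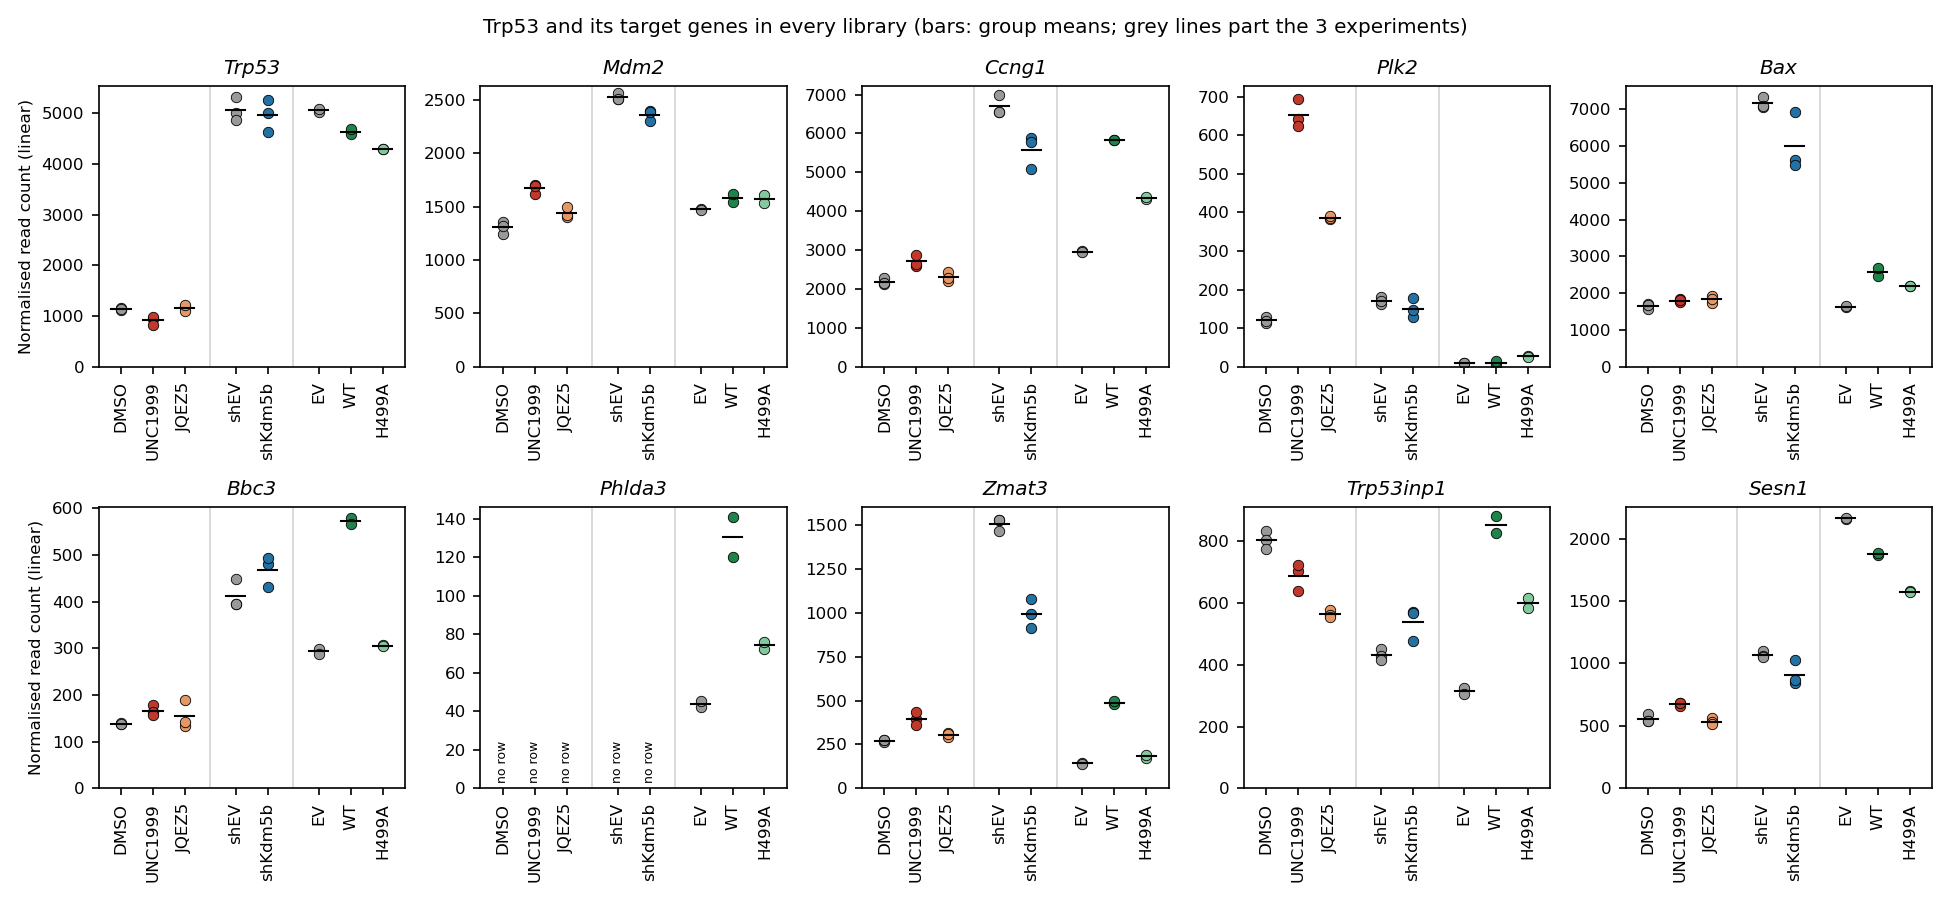
Normalised read count (linear axis from 0) of each gene in every library, with bars at group means and grey lines between the 3 experiments. Plk2 climbs from 113 to 129 in DMSO to 623 to 693 in UNC1999, and Zmat3 falls from 1466 to 1531 in shEV to 913 to 1077 in shKdm5b.

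From here levels are normalised read counts, comparable between libraries of 1 table, and a ratio is the ratio of group means. Differences, SE and 95% intervals are on the deposited log2 scale after variance stabilisation, which compresses genes of low count, so a log2 difference can be smaller than the ratio would give. A gene is called when the limma adjusted p, over all tested genes of the table, is under 0.05. An exact permutation test of 1 gene cannot go below 0.1 with 3 libraries against 3, or below 0.333 with 2 against 2, and therefore cannot reach 0.05 in any comparison here. In these bulk libraries, fewer cells of a type and less RNA per cell cannot be told apart.

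Under UNC1999 the Trp53 transcript fell while most targets rose. Of the 9 members tested against DMSO, 6 were called higher (Mdm2, Ccng1, Plk2, Bax, Zmat3 and Sesn1), 2 lower (Trp53 and Trp53inp1) and 1, Bbc3, was not called. Among all 10694 genes tested 23.9% were called higher and 24.0% lower, 47.9% together. The median difference was 0.21 over the members and -0.011 over all genes. By far the largest change was that of Plk2.

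Trp53 stood at 1163, 1128 and 1144 in DMSO and at 941, 983 and 822 in UNC1999. All 3 treated libraries lay below all controls, and Trp53 fell by 20.1% (log2 difference -0.27 ± 0.05 SE, limma adjusted p = 0.000382). With JQEZ5 it stood at 1171, 1090 and 1214, which overlaps the controls (log2 difference 0.01, 95% interval -0.09 to 0.12, adjusted p = 0.888). Compared directly, UNC1999 libraries held 0.790 times the Trp53 of JQEZ5 libraries (adjusted p = 0.000443).

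Mdm2, the ubiquitin ligase that restrains p53, stood at 1358, 1247 and 1320 in DMSO, at 1621, 1705 and 1697 in UNC1999 and at 1401, 1423 and 1501 in JQEZ5. The 3 groups did not overlap, with UNC1999 highest. The ratio was 1.28 for UNC1999 (log2 difference 0.31 ± 0.04 SE, limma adjusted p = 7.54e-06) and 1.10 for JQEZ5 (adjusted p = 0.0331). The JQEZ5 call rested on single libraries: without DMSO replicate 2 or 3 the adjusted p was 0.158 or 0.0744, and without JQEZ5 replicate 2 or 3 it was 0.0518 or 0.155. It was also lost with median centring (0.0542) and with eBayes without the trend (0.0612).

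Among the arrest genes, Plk2 rose from 113, 129 and 118 in DMSO to 643, 623 and 693 in UNC1999 and to 384, 386 and 390 in JQEZ5. Every library of each group lay apart from the other groups. The ratio was 5.43 for UNC1999 (log2 difference 1.49 ± 0.05 SE, limma adjusted p = 7.93e-13) and 3.22 for JQEZ5 (0.95 ± 0.05, adjusted p = 7.18e-10). UNC1999 exceeded JQEZ5 1.69-fold (adjusted p = 5.36e-07). Ccng1 encodes cyclin G1, which brings a phosphatase to Mdm2. It stood at 2282, 2122 and 2151 in DMSO and at 2598, 2653 and 2885 in UNC1999, with no overlap and a ratio of 1.24 (adjusted p = 5.80e-05). In JQEZ5 it stood at 2212, 2436 and 2272, overlapping DMSO (ratio 1.06, 95% interval of the log2 difference -0.02 to 0.16, adjusted p = 0.274).

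Among the death genes, Bax, which opens the outer mitochondrial membrane, stood at 1560, 1696 and 1685 in DMSO, at 1841, 1751 and 1812 in UNC1999 and at 1930, 1727 and 1833 in JQEZ5. Both treated groups lay just above the controls, with ratios of 1.09 (limma adjusted p = 0.0324) and 1.11 (adjusted p = 0.0285). The UNC1999 call was lost without DMSO replicate 1 (0.155), UNC1999 replicate 1 (0.0988) or UNC1999 replicate 3 (0.0596). For JQEZ5 the adjusted p was 0.135 when DMSO replicate 1 was dropped, and 0.127 and 0.0826 when JQEZ5 replicates 1 and 3 were. Both were also lost with quantile normalisation (0.186 and 0.0649) and with eBayes without the trend (0.0611 and 0.0614). Bbc3 encodes PUMA, a BH3-only activator of Bax. It stood at 138, 139 and 137 in DMSO, at 178, 163 and 157 in UNC1999 and at 189, 133 and 143 in JQEZ5. Its UNC1999 libraries all lay above the controls, but the difference of 0.13 (95% interval -0.01 to 0.27) did not pass (adjusted p = 0.112), nor did that of JQEZ5 (0.08, adjusted p = 0.453).

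Zmat3, a zinc-finger RNA-binding protein that shapes splicing and transcript stability downstream of p53, stood at 262, 273 and 278 in DMSO and at 397, 433 and 358 in UNC1999. The groups did not overlap and the ratio was 1.46 (log2 difference 0.35 ± 0.05 SE, limma adjusted p = 5.18e-05). In JQEZ5 it stood at 292, 317 and 307, above every DMSO library, and did not pass (0.11, 95% interval -0.01 to 0.22, adjusted p = 0.167). Trp53inp1, a nuclear protein that promotes p53-dependent death and autophagy, went the other way from 834, 806 and 774 in DMSO to 638, 704 and 723 in UNC1999 and 577, 560 and 556 in JQEZ5. No libraries overlapped, and here JQEZ5 gave the lower level. It fell by 14.5% with UNC1999 (adjusted p = 0.00396) and by 29.9% with JQEZ5 (adjusted p = 9.01e-06). Sesn1, a sestrin that restrains mTORC1 signalling, stood at 591, 538 and 542 in DMSO, at 683, 657 and 681 in UNC1999 and at 564, 527 and 511 in JQEZ5. All UNC1999 libraries lay above the other groups. The ratio to DMSO was 1.21 for UNC1999 (adjusted p = 0.00128) and 0.959 for JQEZ5 (adjusted p = 0.531), and UNC1999 exceeded JQEZ5 1.26-fold (adjusted p = 0.000437).

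UNC1999 and JQEZ5 make 1 pair of compounds at a matched dose and time. With JQEZ5, 4 of 9 members were called against DMSO, 3 higher (Mdm2, Plk2 and Bax) and 1 lower (Trp53inp1), where 23.6% of all genes were called, 13.1% higher and 10.5% lower. The median difference was 0.08 over the members and 0.006 over all genes. That count was 2 without JQEZ5 replicate 3. In the direct comparison 6 members were higher in UNC1999 (Mdm2, Ccng1, Plk2, Zmat3, Trp53inp1 and Sesn1), 1 was lower (Trp53), and 2 were not called, against 36.4% of all genes called, 18.7% higher and 17.7% lower. The ratios of UNC1999 to JQEZ5 among those called higher ran from 1.16 for Mdm2 to 1.69 for Plk2. For Bax the difference was -0.02 (95% interval -0.11 to 0.07, limma adjusted p = 0.752) and for Bbc3 0.06 (-0.08 to 0.19, adjusted p = 0.543). The 2 comparisons with DMSO share the same 3 control libraries.

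Markers of maturation and growth moved in the same libraries. Of 10 monocyte and macrophage markers (such as Cd68, Adgre1 and Lyz2) 9 were called higher and 0 lower with UNC1999, and 7 higher and 2 lower with JQEZ5. Their summed level was 102225 to 103917 normalised counts in DMSO, 170557 to 172055 in JQEZ5 and 226862 to 238344 in UNC1999. Of 10 proliferation genes (such as Mki67 and Top2a) all 10 were lower with UNC1999 and 8 with JQEZ5, with sums of 36128 to 36849 in DMSO, 31639 to 32492 in JQEZ5 and 25914 to 26057 in UNC1999. The part of these shifts in the members' changes was not tested.

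**Figure D3:**
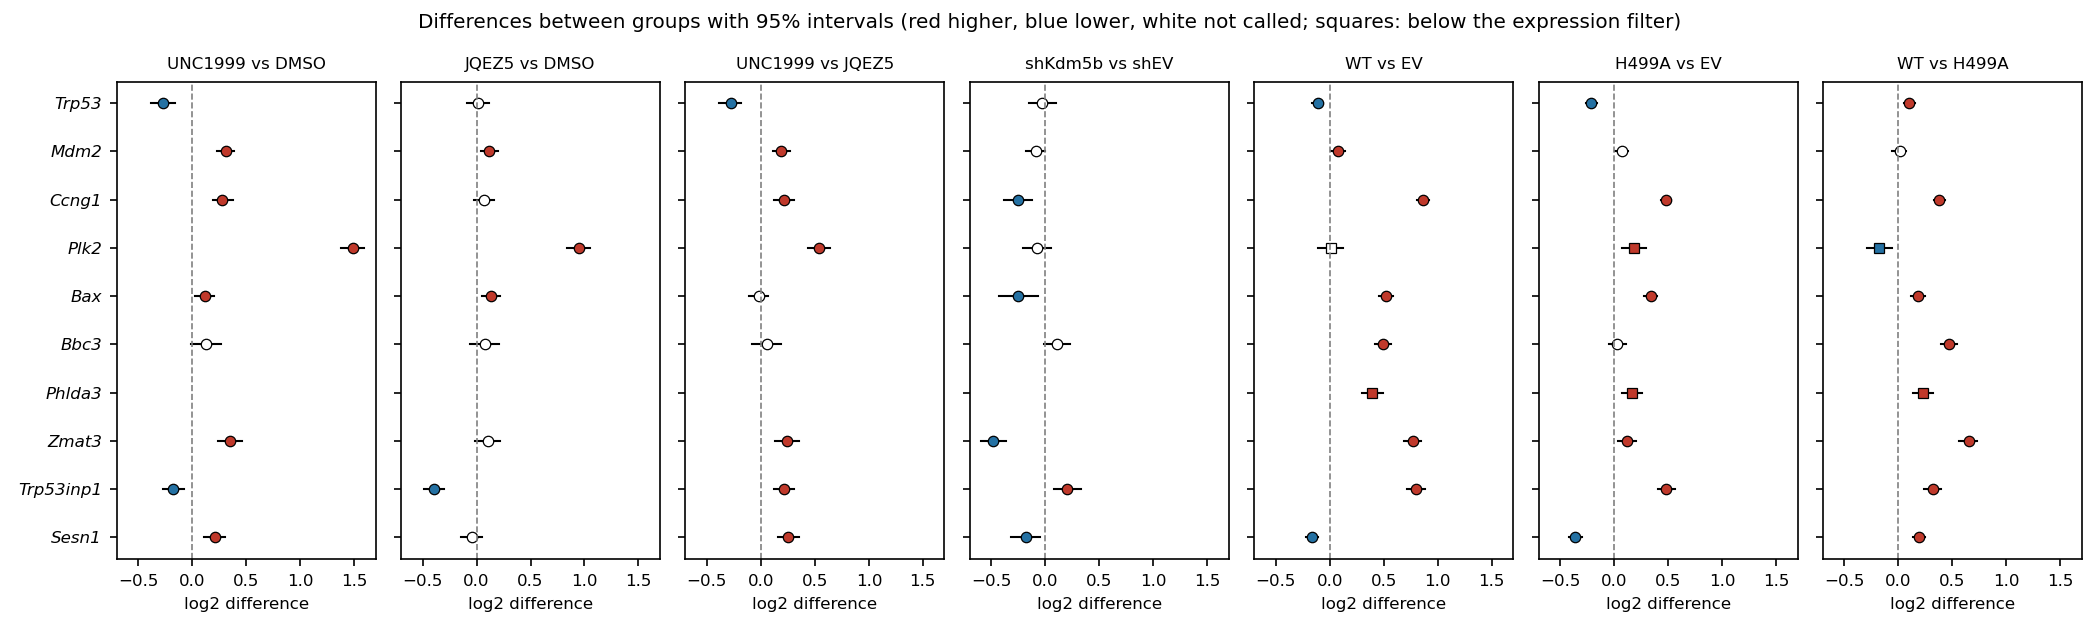
Difference of each gene between groups (deposited log2 scale) with its 95% interval in the 7 comparisons. Red points are called higher, blue called lower and white not called, and squares are genes under the expression filter. Trp53 lies at -0.27 with UNC1999 while Plk2 lies at 1.49, Zmat3 is -0.48 in the knockdown and 0.77 with Kdm5b_WT, and Trp53inp1 changes side between the inhibitors and Kdm5b_WT.

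Knockdown of Kdm5b gave small changes, led by a fall of Zmat3. Of 9 members tested, 4 were lower (Ccng1, Bax, Zmat3 and Sesn1), 1 was higher (Trp53inp1) and 4 were not called (Trp53, Mdm2, Plk2 and Bbc3). Among all 10810 genes 32.5% were called, 15.0% higher and 17.4% lower. The median difference was -0.09 over the members and -0.011 over all genes. The number called fell from 5 to 2 without shEV replicate 1, shEV replicate 2 or shKdm5b replicate 2, to 1 without shEV replicate 3 and to 3 without shKdm5b replicate 3.

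Trp53 itself stood at 5012, 5310 and 4872 in shEV and at 5268, 4622 and 5009 in shKdm5b. The groups overlapped, and the difference was -0.03 (95% interval -0.15 to 0.10, limma adjusted p = 0.730). Mdm2 stood at 2511, 2564 and 2511 in shEV and at 2298, 2398 and 2384 in shKdm5b, where every library was lower, but the difference of -0.09 did not pass (adjusted p = 0.110). Plk2 overlapped, at 181, 163 and 170 against 129, 146 and 177 (-0.08, 95% interval -0.21 to 0.05, adjusted p = 0.296). So did Bbc3, at 395, 449 and 394 in shEV and 481, 430 and 493 in shKdm5b (0.11, 95% interval -0.01 to 0.23, adjusted p = 0.133).

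Zmat3 stood at 1466, 1527 and 1531 in shEV and at 913, 996 and 1077 in shKdm5b. All knockdown libraries lay well below all controls. It fell by 34.0% (log2 difference -0.48 ± 0.05 SE, limma adjusted p = 0.000274), and no alternative tried ended the call. Ccng1 stood at 6560, 6557 and 6978 in shEV and at 5095, 5883 and 5777 in shKdm5b, with no overlap, and fell by 16.6% (adjusted p = 0.0117, or 0.0609 without shEV replicate 3).

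The other 3 calls were fragile. Bax stood at 7342, 7070 and 7080 in shEV and at 6935, 5615 and 5477 in shKdm5b, where replicate 1 lay near the controls (fell by 16.1%, limma adjusted p = 0.0398). Its adjusted p was 0.128, 0.0977 and 0.10 without shEV replicates 1, 2 and 3, 0.125 and 0.121 without shKdm5b replicates 2 and 3, and 0.0777 with quantile normalisation. Sesn1 went from 1099, 1057 and 1049 to 840, 864 and 1024 (fell by 14.9%, adjusted p = 0.0462). Its adjusted p was 0.156, 0.116 and 0.108 without shEV replicates 1, 2 and 3, 0.0551 and 0.127 without shKdm5b replicates 1 and 2, 0.0566 with no filter, 0.0539 with median centring and 0.0621 with quantile normalisation. Trp53inp1 was the single member higher, from 450, 427 and 415 to 476, 571 and 568 (ratio 1.25, adjusted p = 0.0233). Its adjusted p was 0.0568, 0.0816 and 0.0929 without shEV replicates 1, 2 and 3, and 0.0712 and 0.0678 without shKdm5b replicates 2 and 3. In all 3 genes the groups did not overlap.

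Beside these changes, 8 of 10 monocyte and macrophage markers were lower and 1 higher in shKdm5b, with sums of 34033 to 38383 against 44001 to 45271 in shEV. Of the proliferation genes 3 were higher and 2 lower. The part of the marker shift in the members' changes was not tested.

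With wild-type Kdm5b in MLL-AF9 cells the ratios of the members called higher ran from 1.07 for Mdm2 to 3.42 for Zmat3. All 8 members tested in Kdm5b_WT against EV were called, 6 higher (Mdm2, Ccng1, Bax, Bbc3, Zmat3 and Trp53inp1) and 2 lower (Trp53 and Sesn1), in a table where 62.2% of 9458 tested genes were called, 29.8% higher and 32.4% lower. The median difference was 0.51 over the members and -0.008 over all genes. Plk2 and Phlda3 lay under the expression filter and take their p from the fit of all genes. Zmat3 passed the filter through the Kdm5b groups, since only 1 of the 2 EV libraries reached it. Over all 10 members, with the fit of all genes for those below the filter, 7 were higher, 2 lower and 1 not called. Without the filter 48.1% of genes were called, 24.3% higher and 23.8% lower.

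Trp53 stood at 5018 and 5086 in EV, at 4580 and 4687 in Kdm5b_WT and at 4286 and 4299 in Kdm5b_H499A. The 3 groups did not overlap, and the mutant was lowest. It fell by 8.29% with wild-type Kdm5b (log2 difference -0.11 ± 0.02 SE, limma adjusted p = 0.000323) and by 15.0% with H499A (-0.21 ± 0.02, adjusted p = 6.60e-08). Mdm2 moved little, from 1482 and 1465 in EV to 1544 and 1622 in Kdm5b_WT and 1605 and 1537 in Kdm5b_H499A. Its ratio was 1.07 in both, called with the wild type (adjusted p = 0.0330) and not with H499A (adjusted p = 0.0667). The wild-type call was lost without EV replicate 1 (0.0794), EV replicate 2 (0.136) or Kdm5b_WT replicate 2 (0.241), with median centring (0.0797) and with eBayes without the trend (0.0528). H499A passed when only the 2 groups compared were fitted (0.0437), and between the 2 Kdm5b groups no difference was detected (0.01, 95% interval -0.06 to 0.07, adjusted p = 0.844).

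Ccng1 stood at 2975 and 2944 in EV, 5824 and 5844 in Kdm5b_WT and 4321 and 4369 in Kdm5b_H499A. The groups lay far apart, with the wild type highest and the mutant between. The ratios were 1.97 (log2 difference 0.86 ± 0.02 SE, limma adjusted p = 1.34e-20) and 1.47 (0.48 ± 0.02, adjusted p = 6.01e-15), and the wild type exceeded the mutant 1.34-fold (adjusted p = 7.93e-13). Plk2 had few reads, at 8.88 and 9.71 in EV, 5.25 and 15.7 in Kdm5b_WT and 28.8 and 26.1 in Kdm5b_H499A. H499A was higher than EV (adjusted p = 0.0119) and the wild type was not (adjusted p = 0.933). The H499A call was lost without any single library of EV (0.0631 and 0.0521 without replicates 1 and 2) or of Kdm5b_H499A (0.0847 and 0.0554). Wild type against mutant gave 0.382 (adjusted p = 0.0138), lost without Kdm5b_WT replicate 1 (0.175), Kdm5b_H499A replicate 1 (0.0906) or replicate 2 (0.0585).

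Among the death genes Bax rose from 1618 and 1644 in EV to 2457 and 2677 in Kdm5b_WT and 2208 and 2192 in Kdm5b_H499A. No libraries overlapped, and the ratios were 1.57 (limma adjusted p = 9.95e-14) and 1.35 (adjusted p = 8.10e-10). Bbc3 stood at 298 and 288 in EV, 579 and 567 in Kdm5b_WT and 306 and 305 in Kdm5b_H499A. The wild-type libraries stood apart from both other groups (ratio to EV 1.96, adjusted p = 1.44e-11), while the mutant gave 1.04 (log2 difference 0.03, 95% interval -0.05 to 0.11, adjusted p = 0.567). Wild type exceeded mutant 1.87-fold (adjusted p = 7.72e-11). Phlda3, which blocks Akt at the membrane, stood at 42.4 and 45.3 in EV, 120 and 141 in Kdm5b_WT and 72.4 and 76.2 in Kdm5b_H499A. Its ratios were 2.98 (adjusted p = 2.35e-06) and 1.69 (adjusted p = 0.00701), the latter lost without Kdm5b_H499A replicate 2 (0.0564).

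Zmat3 showed the highest ratio with wild-type Kdm5b. It stood at 146 and 139 in EV, 478 and 498 in Kdm5b_WT and 174 and 190 in Kdm5b_H499A. The wild-type ratio was 3.42 (log2 difference 0.77 ± 0.04 SE, limma adjusted p = 5.18e-15) and the mutant ratio 1.28 (adjusted p = 0.0133), a difference of 2.68-fold between them (adjusted p = 4.00e-13). These p-values are from the filtered fit, which Zmat3 entered through the Kdm5b groups. Its calls against EV also stood in the fit of all genes. The mutant call was lost without EV replicate 2 (0.0782) or Kdm5b_H499A replicate 2 (0.126). Trp53inp1 rose from 325 and 306 in EV to 881 and 828 in Kdm5b_WT and 584 and 615 in Kdm5b_H499A, with no overlap. Its ratios were 2.71 (adjusted p = 6.04e-16) and 1.90 (adjusted p = 3.32e-11).

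Sesn1, like Trp53, went down, from 2157 and 2166 in EV to 1867 and 1883 in Kdm5b_WT and 1582 and 1570 in Kdm5b_H499A. The mutant libraries were lowest. It fell by 13.3% with the wild type (limma adjusted p = 1.81e-05) and fell by 27.1% with H499A (adjusted p = 4.85e-11).

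With H499A, 4 of 8 tested members were higher (Ccng1, Bax, Zmat3 and Trp53inp1), 2 lower (Trp53 and Sesn1) and 2 not called (Mdm2 and Bbc3), where 49.6% of genes were called, 22.7% higher and 26.9% lower. The median difference was 0.10 over the members and -0.012 over all genes. Compared directly, 7 of 8 were higher in Kdm5b_WT than in Kdm5b_H499A and 0 lower, with Mdm2 not called, against 54.4% of genes called, 28.2% higher and 26.3% lower. Trp53 (ratio 1.08, limma adjusted p = 0.00154) and Sesn1 (1.19, adjusted p = 2.44e-06) are among the 7 because they fell less with the wild type. Over all 10 members, with the fit of all genes for Plk2 and Phlda3, 6 were higher and 2 lower with H499A (without the filter 38.8% of genes were called, 19.6% higher and 19.1% lower), and 8 were higher and 1 lower in wild type against mutant (41.6%, 20.7% higher and 20.9% lower). The comparisons with EV share the same 2 control libraries.

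Markers again moved in the same libraries. Of 9 tested monocyte and macrophage markers 8 were higher and 1 lower with Kdm5b_WT, and 8 higher and 0 lower with Kdm5b_H499A, with sums of 21802 to 22800 in EV, 61732 to 63885 in Kdm5b_WT and 40493 to 40512 in Kdm5b_H499A. Of 10 proliferation genes 7 were lower and 1 higher with the wild type, and 4 lower and 2 higher with the mutant. Their part in the members' changes was not tested.

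Set side by side, the knockdown and the wild-type overexpression, in different lines and with no shared libraries, gave opposite calls for 3 members. Ccng1, Bax and Zmat3 were lower in shKdm5b and higher in Kdm5b_WT. Among all tested genes 17.4% were called lower in the knockdown and 29.8% higher with Kdm5b_WT. The share of all genes with opposite calls was not counted, so the 3 opposite calls have no background and cannot be read as a trait of the members. The knockdown call of Ccng1 was lost without shEV replicate 3, and that of Bax in several refits. Trp53inp1 was higher in both and Sesn1 lower in both. Mdm2 and Bbc3 were called (higher) with Kdm5b_WT only, as was Trp53 (lower), and Plk2 in neither. No test across the tables was made.

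The other genes of the pathway, a list of 55 targets and regulators, did not move 1 way as a whole. With UNC1999 9 of 45 tested were higher and 11 lower (44.4% called, against 47.9% of all genes), and with JQEZ5 4 were higher and 6 lower (22.2%, against 23.6%). Those shares are near the background. Between UNC1999 and JQEZ5 10 were higher and 9 lower (42.2%, against 36.4%), a count of 12 in all without JQEZ5 replicate 1, and the JQEZ5 count fell from 10 to 6 without DMSO replicate 3. In the knockdown 15 of 46 were higher and 7 lower (47.8%, against 32.5%). That count fell from 22 to 13 without shEV replicate 1 or shEV replicate 2, and ran up to 28 when other single libraries were left out. With Kdm5b_WT 19 of 43 were higher and 14 lower (76.7%, against 62.2%), with Kdm5b_H499A 17 and 17 (79.1%, against 49.6%), and between them 14 and 10 (55.8%, against 54.4%). The Kdm5b_H499A count against EV was lower in every fit that left out 1 library, where a group keeps a single library. All these counts take in genes that passed the filter only through a group where they are high. The medians of the list lay between -0.03 and 0.08 in all 7 comparisons.

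**Figure D4:**
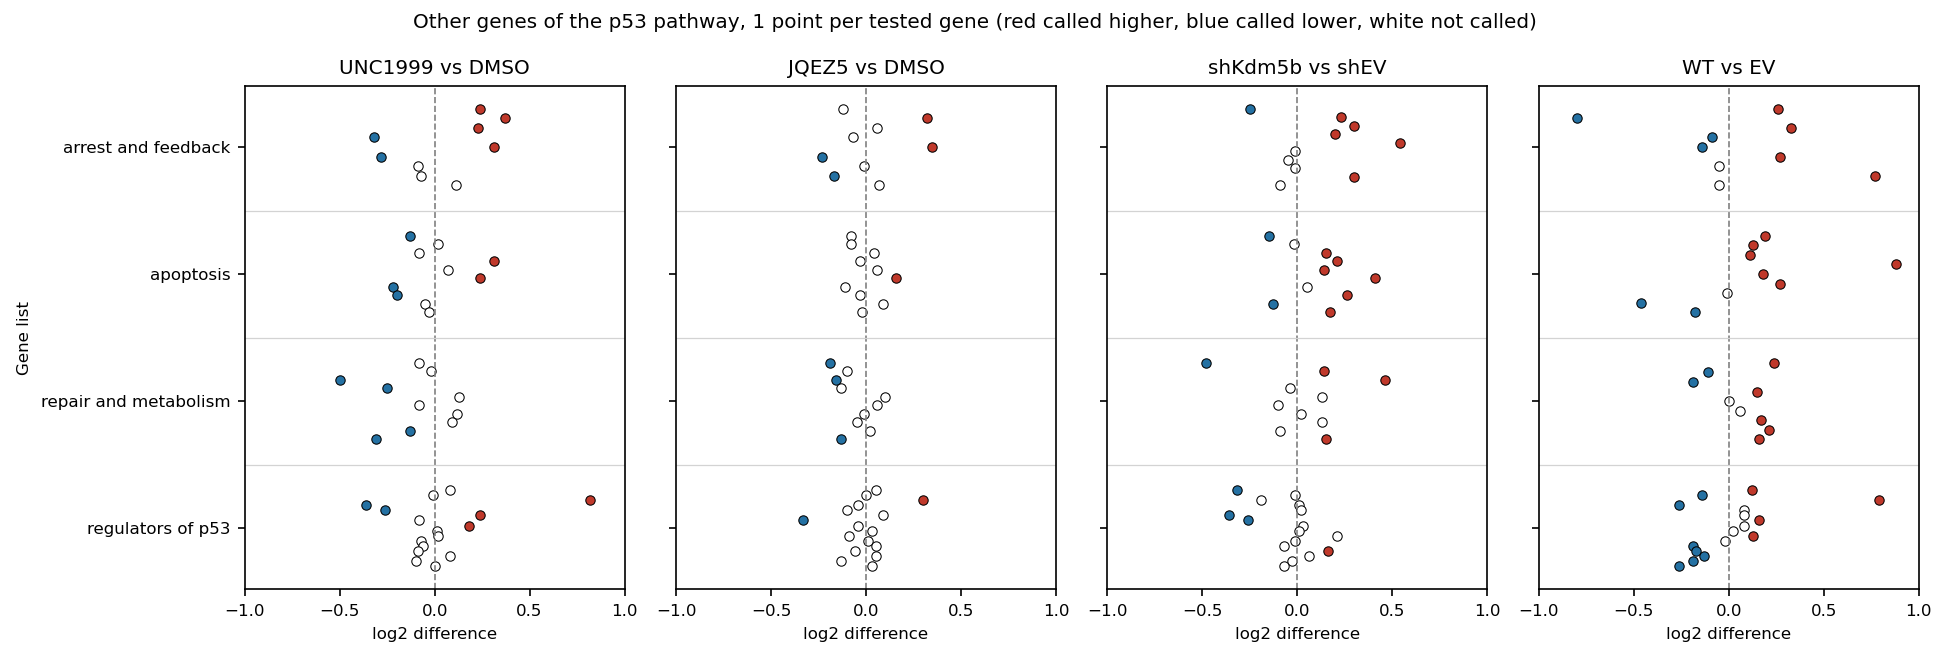
Differences (deposited log2 scale) of the other tested pathway genes, 1 point per gene, in 4 comparisons and 4 lists by role. Red points are called higher, blue lower and white not called, and both colours occur on the 2 sides of 0 in most lists, as with 9 higher and 11 lower for UNC1999.

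By role, the 4 lists hold 9 to 16 tested genes each, and their counts are read against the shares of all genes given above for each comparison. Of the arrest and feedback genes (9 tested, 10 in the knockdown), 4 were higher and 2 lower with UNC1999, 2 and 2 with JQEZ5, and 2 and 1 between the inhibitors. In the knockdown 5 were higher and 1 lower (60.0% called, against 32.5% of all genes). With Kdm5b_WT 4 were higher and 3 lower, with Kdm5b_H499A 3 and 4, and between them 4 and 3, each 77.8% called against 62.2%, 49.6% and 54.4%. Of the apoptosis genes (10 tested, 9 in the overexpression), 2 were higher and 3 lower with UNC1999 (50.0%, against 47.9%), 1 and 0 with JQEZ5, and 2 and 3 between them. In the knockdown 6 were higher and 2 lower (80.0%), with Kdm5b_WT 6 and 2 and with Kdm5b_H499A 5 and 3 (both 88.9%), and between these 4 and 2.

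Of the repair and metabolism genes (10 tested, 9 in the overexpression), 0 were higher and 4 lower with UNC1999 (40.0%, against 47.9%), 0 and 3 with JQEZ5, and 1 and 3 between them. In the knockdown 3 were higher and 1 lower (40.0%, against 32.5%). With Kdm5b_WT 5 were higher and 2 lower (77.8%, against 62.2%), with Kdm5b_H499A 7 and 2 (100%, against 49.6%), and between these 1 and 2. Without the filter 6 of 12 were higher and 1 lower with Kdm5b_H499A, where 38.8% of all genes were called. Of 16 regulators of p53, 3 were higher and 2 lower with UNC1999 (31.2%, against 47.9%), 1 and 1 with JQEZ5, 5 and 2 between them, and 1 and 3 in the knockdown (25.0%, against 32.5%). With Kdm5b_WT 4 were higher and 7 lower (68.8%, against 62.2%), with Kdm5b_H499A 2 and 8 (62.5%, against 49.6%), and between these 5 and 3.

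Cdkn1a encodes p21, the CDK inhibitor through which p53 stops the cell cycle. It stood at 2854, 3104 and 3094 in DMSO and at 3532, 3601 and 3604 in UNC1999, with no overlap (ratio 1.19, limma adjusted p = 0.000183), and its ratio with JQEZ5 was 1.04 (adjusted p = 0.347). It rose both in the knockdown, from 2925, 2658 and 2850 to 3725, 3352 and 3566 (1.26, adjusted p = 0.00265), and with overexpression. There it went from 717 and 703 in EV to 985 and 1043 in Kdm5b_WT (1.43, adjusted p = 3.03e-09) and to 1172 and 1197 in Kdm5b_H499A (1.67, adjusted p = 2.72e-12). It was lower in wild type than in mutant (0.856, adjusted p = 0.000325), the reverse of Ccng1, Bax and Zmat3.

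Cdkn2a encodes p16 and, in another reading frame, p19Arf, which blocks Mdm2. Counts per gene do not separate the transcripts. It stood at 89.8, 114 and 96.9 in DMSO, 291, 275 and 332 in UNC1999 and 160, 159 and 154 in JQEZ5, with no overlap. The ratios were 2.99 (limma adjusted p = 1.50e-08) and 1.57 (adjusted p = 0.00143). In the knockdown it went from 209, 258 and 181 to 179, 147 and 157, all below the lowest control, and did not pass (0.745, adjusted p = 0.0574). With Kdm5b_WT it rose from 61.1 and 61.5 to 318 and 315 (5.17, adjusted p = 4.32e-15), against 84.5 and 87.8 with Kdm5b_H499A (1.40, adjusted p = 0.0176). Cdkn2a passed the expression filter of this table only through the 2 Kdm5b_WT libraries. In the fit of all genes, without the filter, its limma adjusted p was 2.34e-10 for the wild type and 0.0245 for H499A.

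Other called pathway genes with the lowest adjusted p were these. With UNC1999 Ddit4 (0.650), a brake on mTORC1, and the repair gene Xpc (0.780) fell, and the death receptor Fas (1.21) rose. With JQEZ5 the acetyltransferase gene Ep300 fell (0.777), and Gadd45a (1.39) and cyclin D1, Ccnd1 (1.43), rose. UNC1999 exceeded JQEZ5 in Btg2 (1.41), an antiproliferative gene, and Dram1 (1.29), a lysosomal protein of autophagy, and was lower in Ddit4 (0.742). In the knockdown Gadd45a (1.64), Fas (1.50) and Ddit4 (1.74) rose and Dcxr (0.576) fell. With Kdm5b_WT Ccnd1 fell to 0.513 of EV, Dram1 rose 2.83-fold and Psrc1 rose from 10.3 ± 0.805 to 157 ± 11.3 normalised counts (SD, n = 2; limma adjusted p = 2.09e-14). Psrc1 passed the filter only through the 2 Kdm5b_WT libraries, and in the fit of all genes its adjusted p was 9.82e-10. With Kdm5b_H499A Ccnd1 fell to 0.614 and Fas (3.37) and Xpc (1.36) rose, and the wild type was above the mutant in Dram1 (2.22) and below it in Fas (0.521) and Xpc (0.842). Fas was thus highest in the mutant, at 378 ± 15.8, against 197 ± 39.4 in Kdm5b_WT and 112 ± 10.4 in EV. Fas passed the filter only through the 2 Kdm5b groups, and in the fit of all genes its adjusted p was 2.59e-08 for H499A against EV and 6.21e-06 for wild type against mutant.

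Likeness of pattern was described over the 21 libraries, as the Pearson correlation of deviations from each table's mean, among 8496 genes tested in all 3 tables. The libraries share groups, so these are descriptions. Nearest to Trp53 were Nelfa (r = 0.91), Mybl2 (0.89) and Pold1 (0.87), and near to Mdm2 were Dusp3 (0.95) and Mcl1 (0.95). Members were compared with each other where tested in all 3 tables, which leaves out Plk2 and Phlda3. Among those compared Ccng1 and Zmat3 were most alike, at 0.87 over 21 libraries. Within the inhibitor, knockdown and overexpression tables they stood at 0.82, 0.94 and 0.90. Trp53 and Mdm2 ran against each other in the inhibitor (-0.77) and overexpression (-0.68) tables, with 0.05 in the knockdown. Trp53 and Sesn1 ran together at 0.99 in the overexpression and apart at -0.86 in the inhibitor table.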

How the data were processed

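RNA sequencing of 21 libraries in 8 groups gave 3 tables, which the authors deposited as log2 values after a variance-stabilising transformation; per the submitters' processing notes the tools were STAR 2.4.2, Salmon 0.1.19 and DESeq2 1.38.2 on mm10 (GRCm38.p4). That the knockdown table holds the same kind of values was read from the values themselves. Which of the 2 library kits that the labels name made which library is not stated.

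The closed form of the transformation was inverted with the dispersion that each table's lowest value (6.88278, 7.43603 and 8.18232) implies. It gave whole reads, within 0.05, in 100.0% of the lower values, where this was checked. Higher values were rounded to whole reads without that check. The inversion gave the normalised counts, and the whole reads gave the depths. Levels per length used merged exon lengths of GENCODE M21, where all 10 members were found by symbol. limma 3.58.1 (R 4.3.3) estimated a mean for every group of a table from the deposited values, with eBayes moderation along the expression trend. Benjamini-Hochberg adjustment ran over the genes that exceeded the lowest value by 1 log2 unit or more in a number of libraries equal to the smallest group (59.0, 86.6 and 145 normalised counts; 10694, 10810 and 9458 genes). Members under that filter take their p from a fit of all genes. The fit was tested on simulated data. Replicates were not paired.

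The members, lists, tests and alternatives were chosen with earlier results of these data known. The text names all members, Kdm5b, Cdkn1a, Cdkn2a, and up to 4 called pathway genes with the lowest adjusted p per comparison; the pathway list covers arrest, apoptosis, repair and regulators. It also names the genes most like Trp53 and Mdm2 in pattern, of which 1 is not reported here. Alternative fits changed the filter (none, or 2 log2 units), the scaling (medians or quantiles), the eBayes moderation (no trend, or robust), the samples (each library left out, or the 2 compared groups alone) or the model (replicate block, or voom on recovered reads). The promoter windows came from RefSeq (GRCm38.p6).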

Additional observations from a re-analysis of the deposited data

How the results depend on the processing

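Over 899 refits of the 66 member differences, 847 kept their side of the threshold, 51 lost a call, 1 gained one and 0 reversed. With eBayes without the trend the members called for JQEZ5 against DMSO went from 4 to 2, with quantile normalisation those of the knockdown went from 5 to 3, and with a filter at 2 log2 units, which tests fewer genes, the pathway genes called for Kdm5b_H499A against EV went from 34 to 20. Leaving out 1 library at a time gave 2 to 3 members called for JQEZ5 against DMSO and 1 to 4 for the knockdown. It gave 6 to 10 pathway genes for JQEZ5 against DMSO, 12 to 18 for UNC1999 against JQEZ5 and 13 to 28 for the knockdown. The cause was not tested. In the overexpression experiment, leaving out 1 library leaves a group with a single library that is assumed to vary like the others. The fit of only the 2 groups compared was not run apart for the knockdown, whose table holds just those.

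Deviations of libraries with the same replicate number correlated at a Pearson r from -0.15 to 0.22. Libraries with different numbers were not compared in this way, so these values cannot decide whether the numbers mark pairs. The numbers were not taken as pairs. With the replicate block the members called were 8, 4 and 7 in the inhibitor comparisons, 5 in the knockdown and 8, 6 and 7 in the overexpression comparisons, and 0 of 66 calls changed. On the recovered whole reads voom called 5044, 2591 and 3924 genes in the inhibitor comparisons, 3538 in the knockdown, and 5824, 4682 and 5152 in the overexpression. Low counts limit Plk2 and Phlda3 in the overexpression and Kdm5b in the knockdown.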
